A study of Mus musculus with 4 samples.

Results

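Conventional CD4 T cells of the aged lung were taken as the cells that carried T cell receptor complex transcripts and Cd4 but no transcript of the genes that mark CD8, regulatory, gamma-delta, NK or B cells. Kept barcodes had 500 or more genes, 1000 or more UMIs (unique molecular identifiers, 1 per counted RNA molecule) and no more than 10% mitochondrial UMIs. A kept barcode was a member with a UMI of at least 2 of the 4 genes Cd3d, Cd3e, Cd3g and Trac, at least 1 UMI of Cd4, none of Cd8a, Cd8b1, Foxp3, Trdc, Ncr1 or Cd79a, at most 3 UMIs of S100a9 and at most 1 of C1qa. This gave 852 members among 68675 kept barcodes. The genes of this rule chose the cells, and their levels are given only as a description.

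Conventional CD4 T cells recognise peptides on MHC class II through the T cell receptor and help other cells through surface ligands such as CD40 ligand and through cytokines. Naive cells recirculate through lymphoid organs with homing receptors such as Ccr7, and antigen-experienced cells enter and may stay in tissues such as the lung, with receptors such as Cxcr3 and Cxcr6. Helper programmes are named for their transcription factors and cytokines: interferon-gamma for type 1, Il4, Il5 and Il13 for type 2, and Il17a and Il22 with Il23r and Ccr6 for type 17, which acts at mucosal surfaces. Dividing T cells use glutamine as a carbon and nitrogen source.

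All libraries came from lungs of male C57BL/6 mice that were 19 months old when treatment began. The treated group received BPTES, a small-molecule inhibitor of glutamine breakdown, and the control group its vehicle DMSO, each for 1 month, with 2 libraries per group; the series asks what this inhibitor does to the aged lung. Lungs were digested for 1 hour, sorted on CD45, the surface protein encoded by Ptprc, and remixed at 20000 CD45-negative to 9000 CD45-positive cells of 1 tissue, so shares of all cells were partly set by the sort. The labels do not say whether the libraries of a group came from different mice, so p-values measure only the spread between these libraries, which may be technical.

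BPTES replicates 1 and 2 held 250 and 233 members, and DMSO replicates 1 and 2 held 144 and 225. Median depth per member was 15025, 14451, 14809 and 14706 UMIs in that order, and the summed members held between 2368686 UMIs (DMSO replicate 1) and 4602129 UMIs (BPTES replicate 1). Values for 4 libraries are given below in the same order, BPTES before DMSO. Some barcodes occurred in more than 1 library (956 kept barcodes), but no member shared its barcode with a member of another library.

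The members carried the transcripts that define the label. Cd40lg, the gene of CD40 ligand and no part of the rule, was at 152, 168, 155 and 193 CPM (UMIs of the gene per 1000000 UMIs) in the members, against a mean of 14.9 CPM in CD8 T cells, 52.2 in regulatory T cells and 0.0655 in B cells. Cd3e was at 300, 273, 353 and 360 CPM in the members and at 0.818 CPM in NK cells. At the edge of the rule, 134 members had exactly 1 UMI of Cd4 and 127 had 2, while 894 barcodes met every other condition with no Cd4 UMI. Of the members, 780 had UMIs of all 4 CD3 and Trac genes and 12 of only 2, and 13 barcodes fell just outside with 1. A UMI of Foxp3 excluded 128 otherwise eligible barcodes, Cd8a or Cd8b1 50, Cd79a 49 and Trdc 18. S100a9, a neutrophil gene abundant as free RNA, had 1 to 3 UMIs in 189 members.

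The 10 genes per direction that differed most from CD8 T cells are given by name. With no test, since the rule separated these cells, Tnfrsf4 (OX40) averaged 96.9 CPM in the members and 1.65 CPM in CD8 T cells, a mean log2 ratio of 5.21. Il17a, St8sia6, Ccr4, Tnfsf11 (RANKL), Areg, Izumo1r (folate receptor 4), Cd40lg, Nav2 and Trat1 followed. The lowest were Gm44174, at 0 in the members of every library, Klra7, Klre1, Klrc1, Bend4, Gzma, Gzmm, Klrc2, Klrd1 and Ly6c2. Against regulatory T cells, Gzmk, Dapl1, Il12rb2, Il17a, Fasl and Ccl5 were higher in the members. Ikzf2, the gene of Helios and a regulatory T cell factor, was lower, at a mean of 112 against 1528 CPM (log2 ratio -3.85), and so were Il1rl1, Klrg1, Tnfrsf9, Itgb8 and Lrrc32.

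The members' share of CD45-type cells was higher in both BPTES libraries than in both DMSO libraries, but the difference missed the threshold. Members were 4.48% of the kept barcodes with a Ptprc UMI in BPTES replicate 1 (95% exact Clopper-Pearson interval 3.95 to 5.06, counting error only), 3.76% in BPTES replicate 2 (3.30 to 4.26), 2.58% in DMSO replicate 1 (2.18 to 3.03) and 2.85% in DMSO replicate 2 (2.49 to 3.24). The groups did not overlap. In edgeR's quasi-likelihood test on cell numbers the log2 ratio of BPTES over DMSO was 0.60 (SE 0.249), with an adjusted p of 0.0503 over 7 lymphocyte gates.

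As a share of barcodes with 2 or more CD3 and Trac genes, members were 21.9%, 16.2%, 14.7% and 14.4%, a log2 ratio of 0.39 (edgeR adjusted p = 0.146). The share of all kept barcodes was 1.54%, 1.40%, 0.938% and 1.09% (log2 ratio 0.53, adjusted p = 0.0778). B cells, which share the Ptprc denominator, had a log2 ratio of -0.90 and Trdc-positive T cells one of 1.02, both at an adjusted p of 0.00632 in edgeR. Regulatory T cells had 0.79 and T cells without a Cd4 or Cd8 UMI 0.60, both at an adjusted p of 0.0503 in edgeR, and CD8 T cells had -0.12 and NK cells -0.14. Without BPTES replicate 1 or 2 the log2 ratio of the members' share was 0.47 and 0.72. Without DMSO replicate 1 or 2 it was 0.53 and 0.67. These fits leave 1 group with a single library, so their p-values are not given. With at least 3 CD3 and Trac genes asked for, the share's adjusted p fell under the threshold (log2 ratio 0.60, edgeR adjusted p = 0.0498). Its unadjusted p did not fall, at 0.0306 against 0.0305 in the main fit. The adjusted p moved with that of regulatory T cells, whose unadjusted p was 0.0356 against 0.0359, so this setting does not strengthen the difference in members.

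**Figure D1:**
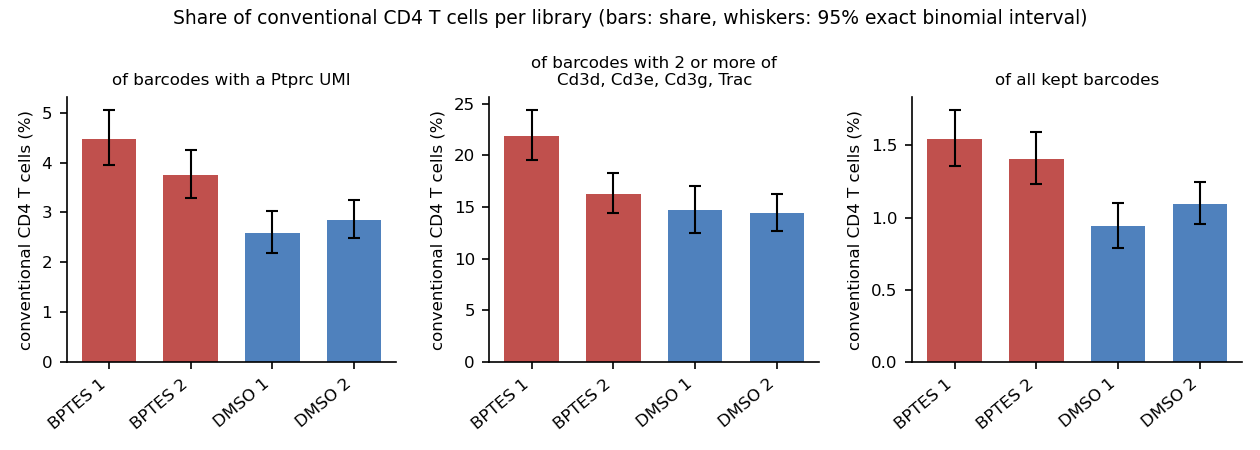
Share of conventional CD4 T cells in each library among barcodes with a Ptprc UMI, among barcodes with at least 2 CD3 and Trac genes and among all kept barcodes (vertical axes, percent), with bars for the share and whiskers for the 95% exact binomial interval. Both BPTES libraries lie above both DMSO libraries in each panel; among CD3 barcodes BPTES replicate 2 is at 16.2% and DMSO replicate 1 at 14.7%.

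Naive and memory cells were both present, in similar proportions. Each member was thinned to 3000 UMIs, which left out 6 shallower members, and the detected genes of a naive panel of 8 genes (among them Ccr7, Lef1, Dapl1, Actn1, Satb1, Tcf7, Bach2) and a memory panel of 8 (Cxcr6, Cxcr3, Pdcd1, Maf, Id2, Rora, Icos, Il2rb) were counted. A lead of 2 or more genes made a cell naive-type (319 cells) or memory-type (286 cells), and 241 cells lay between, so these are ranges of a score and not separate types. Naive-type cells were 33.6%, 45.7%, 41.0% and 31.8% of the members. Memory-type cells were 35.6%, 30.2%, 29.2% and 38.6%. The libraries of 1 group lay on both sides of those of the other, and the group means differed by 3.25 and -1.02 percentage points (two-sided exact permutation p = 0.667 and 1, where 2 libraries against 2 cannot go below 0.333).

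**Figure D2:**
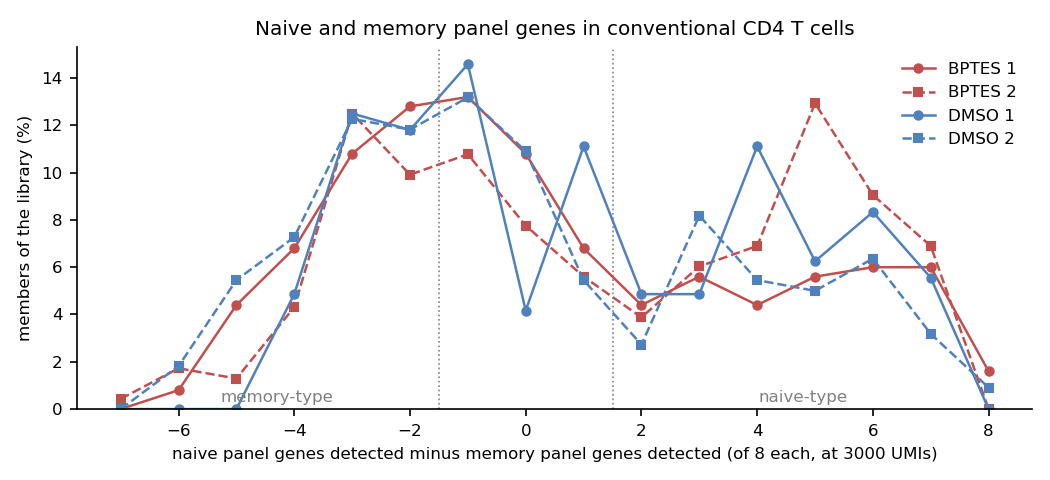
Distribution over the members of each library of the number of naive panel genes minus the number of memory panel genes detected at 3000 UMIs (horizontal axis), as percent of the members of that library (vertical axis). The curves of the 4 libraries overlie each other, with BPTES replicate 2 having most naive-type cells (45.7%).

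UMIs were summed over the members of each library, and 11756 genes were tested between BPTES and DMSO. edgeR's quasi-likelihood test called none at an adjusted p under 0.05 (0.0% called, smallest adjusted p = 0.385). An unadjusted p under 0.05 was found for 938 genes, 599 higher with BPTES (5.1%) and 339 lower (2.88%). DESeq2 made 39 calls, 32 higher and 7 lower. In each direction 19.8% of all tested genes had groups that did not overlap, which is the background for the counts below.

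Some members carried RNA of other lung cells. Marker lists of neutrophils, monocytes and macrophages, endothelial, fibroblast, epithelial and B cells held over 0.5% of the UMIs in 116 members, or 13.6% (38, 33, 15 and 30 per library), whose median depth was 29040.5 UMIs against 14302.5 in the rest. Monocyte and macrophage genes led in 37 of them, endothelial in 35, fibroblast in 33, epithelial in 9 and B cell genes in 2. The epithelial list summed to 6557, 889, 117 and 253 CPM over all members and to 424, 297, 122 and 280 CPM over the 736 members at or below 0.5%. BPTES replicate 1 was highest in both sums. Results are therefore also given over these 736 members, a limit chosen after the data were seen; 12 members lay between 0.4% and 0.6%.

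**Figure D3:**
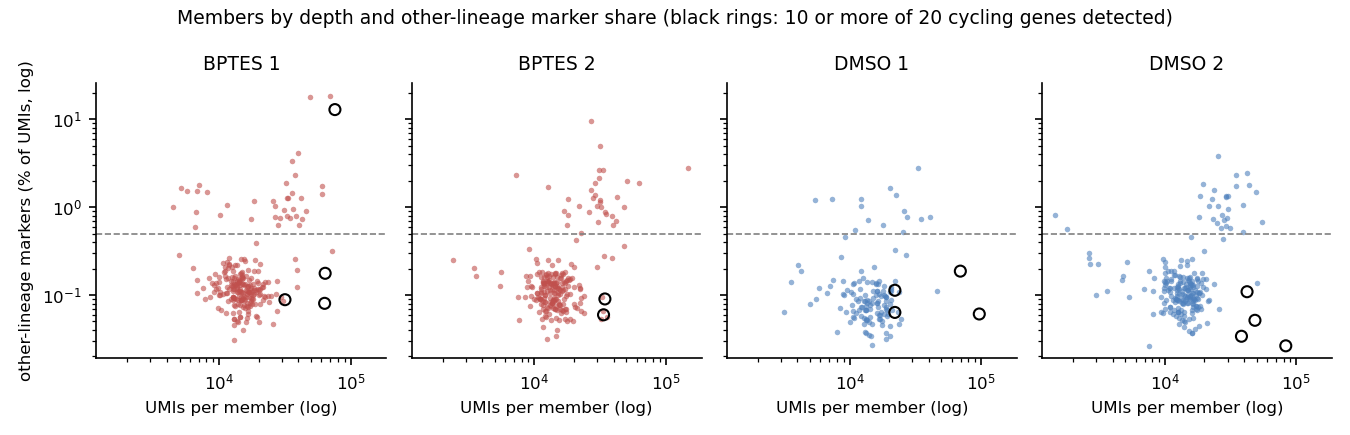
Each point is a member of the library named above the panel, placed by its UMIs (horizontal, log axis) and the percent of its UMIs in other-lineage marker genes (vertical, log axis), with a dashed line at 0.5% and rings around members with 10 or more of 20 cycling genes. Members above the line were deeper (median 29040.5 against 14302.5 UMIs), and the ringed cells were among the deepest.

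Among the 5 genes with the smallest p on the higher side were Lpl, Tanc2, Cxcl2 and Tm4sf1, none of them called (edgeR adjusted p = 0.385). Lpl, lipoprotein lipase, was at 49.8, 104, 7.27 and 7.87 CPM (log2 fold change 3.33), and macrophages, the highest gate, held 380 CPM. The neutrophil-attracting chemokine Cxcl2 was at 82.3, 59.3, 22.2 and 25.2 CPM (1.57) against 4329 CPM in neutrophils. Tm4sf1, an endothelial membrane protein, was at 63.3, 91.1, 26.1 and 27.0 CPM (1.53) against 1064 CPM in endothelial cells. The groups of these genes did not overlap, and the members stood at 11.1%, 1.09% and 4.88% of the level in the gate named. Tanc2 was at 42.7, 38.7, 7.69 and 12.6 CPM (1.96). Without members above the 95th percentile of UMIs Lpl had a log2 fold change of -0.11, and Cxcl2 had -0.72 at or below 0.5% other-lineage UMIs without the 2 richest members of each library. The part of other cells' RNA in these differences was not tested.

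Over the 736 members with little other-lineage RNA, 10357 genes were tested and again none was called (0.0%), with the smallest adjusted p at 0.0503 in edgeR. Unadjusted p-values under 0.05 were found for 385 higher genes (3.72%) and 391 lower genes (3.78%), and groups did not overlap for 18.2% and 18.9%. Leaving out 1 library at a time left 1 group with a single library, so calls from those fits were not read as results.

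Type 17 genes lay on the higher side with BPTES. All 16 genes of the list were tested, all 16 had a positive log2 fold change (median 0.40, against 0.00 over all genes) and 8 did not overlap between the groups, all 8 higher. An unadjusted p under 0.05 was found for 7, none lower. All 16 stayed positive under library totals without TMM scaling and in DESeq2. Over the 736 members the median was 0.50, with 9 at an unadjusted p under 0.05 and 9 without overlap, all higher.

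Il1r1, the receptor through which IL-1 acts on type 17 cells, was at 136 and 99.5 CPM with BPTES and at 66.2 and 54.0 CPM with DMSO. Both BPTES libraries lay above both DMSO libraries. The log2 fold change was 0.98 (SE 0.191), with an adjusted p of 0.385 in edgeR and of 0.0396 in DESeq2. Over the 736 members it was at 149, 120, 60.5 and 54.9 CPM, a log2 fold change of 1.23 (SE 0.145, edgeR adjusted p = 0.0503). Fits without 1 library leave 1 group with no replicate, so their p-values for Il1r1 are not given.

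Other genes of the programme were also higher in both BPTES libraries. Ccr6, the receptor of the mucosal chemokine Ccl20, was at 72.7, 53.9, 35.5 and 37.5 CPM, with no overlap (log2 fold change 0.79, adjusted p = 0.413 in edgeR). Il23r, the receptor of IL-23, was at 87.9, 116, 65.0 and 66.1 CPM (0.64, adjusted p = 0.448). Tmem176a, a membrane protein gene expressed in type 17 cells, was at 175, 162, 119 and 115 CPM (0.53, adjusted p = 0.385). None of these passed the test over all genes.

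The cytokines varied more between libraries. Il17a was at 124, 70.7, 105 and 56.4 CPM, so the groups overlapped (log2 fold change 0.29, edgeR adjusted p = 0.887). Il22 was at 21.8, 11.7, 4.70 and 7.35 CPM (1.44, adjusted p = 0.499) and came from 10, 10, 5 and 5 members. Klrk1, the gene of the activating receptor NKG2D and part of the cytotoxic list, was at 73.8, 71.0, 14.1 and 34.6 CPM (1.52, adjusted p = 0.413).

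Il17a RNA came from few cells. A UMI of it was found in 42, 19, 11 and 12 members, 84 in all. Of these 84 cells, 72 also had a Ccr6 UMI, 66 Il23r, 63 Il1r1 and 37 Klrk1. Zbtb16, which is high in innate-like T cells, had a UMI in 18 of the 84 (21.4%) against 17.7% of the other members. Trav1, the alpha-chain segment of MAIT cells, had a UMI in 1 of them, Trav11, that of NKT cells, in 0 (any Trav UMI was found in only 36.2% of all members), and the gamma-delta segment Trdv4 in 0, as in the other 768 members. Of genes that gamma-delta T cells also express, Tcrg-C1 had a UMI in 18 of the 84 (21.4%) against 4.17% of the other members, Cd163l1 in 9 (10.7%) against 0.911%, Tcrg-C2 in 5 (5.95%) against 3.78%, Blk in 3 (3.57%) against 1.69% and Sox13 in 4 (4.76%) against 4.95%. Whether some of these cells are gamma-delta T cells without a Trdc UMI was not tested. After thinning to 3000 UMIs, Il17a was found in 11.6%, 4.74%, 5.56% and 3.18% of the members, against 0.0647% of B cells, and Il1r1 in 15.6%, 8.19%, 8.33% and 6.82%, against 4.47% of B cells. BPTES replicate 1 was highest for both, and BPTES replicate 2 did not stand apart from DMSO. The B cells and members had median depths of 13351.5 and 14809 UMIs before thinning.

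The number of type 17 cells and their Il1r1 level were both described, with no test, by counting members that had at least 4 of 12 type 17 genes at 3000 UMIs, a limit chosen after the data were seen. Such cells were 42 of 250 members (16.8%, exact interval 12.4 to 22.0), 24 of 232 (10.3%), 10 of 144 (6.94%) and 20 of 220 (9.09%). One gene fewer was found in 23, 5, 8 and 11 members. Without thinning the shares were 32.0%, 17.6%, 17.4% and 18.2%, so only BPTES replicate 1 then stood above DMSO. Within these cells Il1r1 was at 526, 559, 265 and 389 CPM, and in the other members at 59.7, 37.4, 48.2 and 27.6 CPM. The groups did not overlap within the cells that met the limit and overlapped in the rest.

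**Figure D4:**
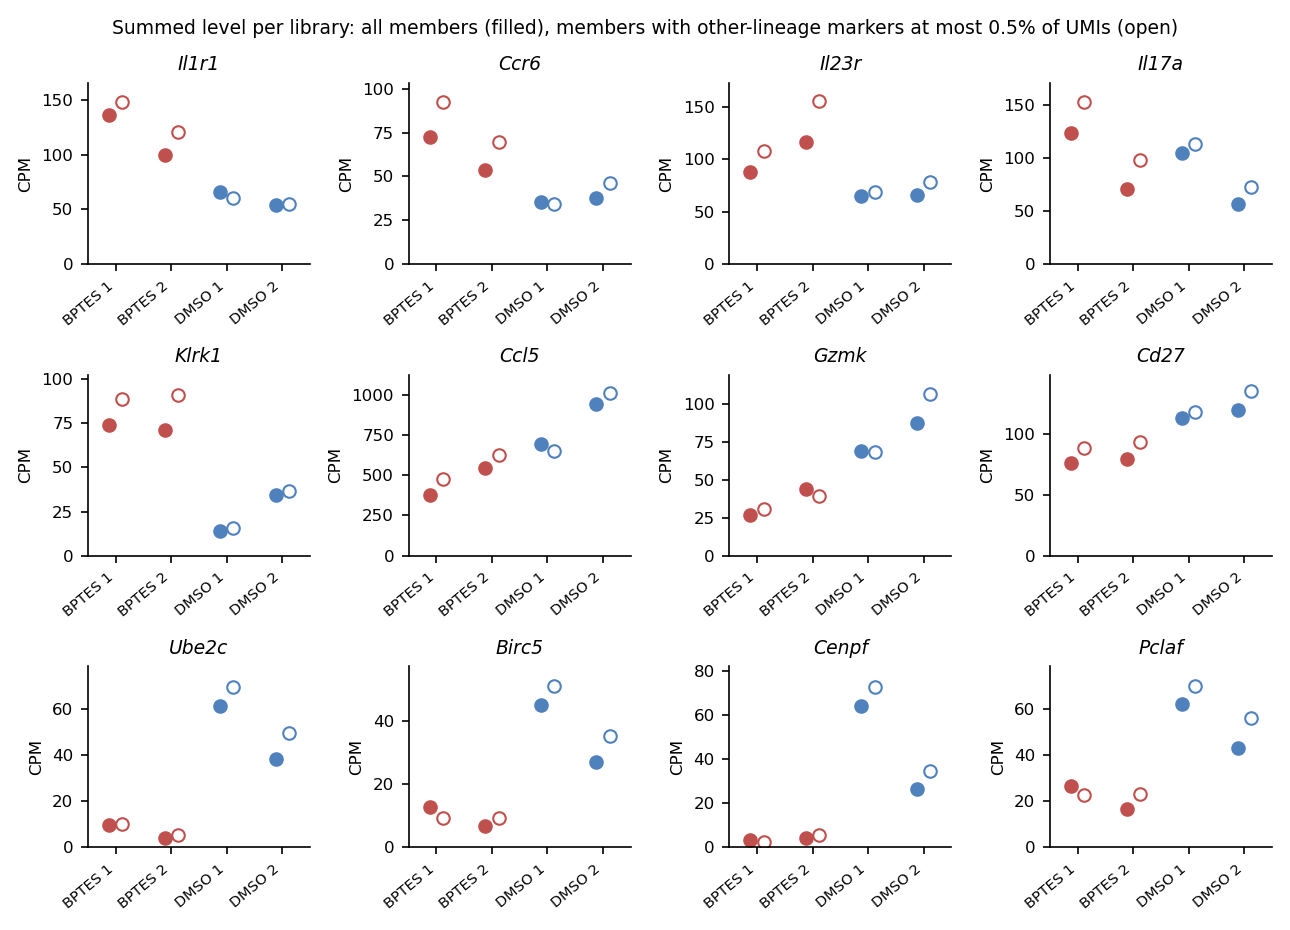
Level of selected genes in the 4 libraries (vertical axes, CPM of the summed members, each from 0), with filled points for all members and open points for the 736 members with at most 0.5% other-lineage marker UMIs. Il1r1 and Ccr6 are higher in both BPTES libraries with either set, and Il17a overlaps between the groups.

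In memory-type cells the receptors separated further. There were 89, 70, 42 and 85 such cells, and of 9490 genes tested edgeR called none (0.0%), with 707 at an unadjusted p under 0.05, 414 higher (4.36%) and 293 lower (3.09%). Groups did not overlap for 19.5% of genes on the higher and 19.2% on the lower side. Of the type 17 list 15 genes were tested, with a median log2 fold change of 0.72 against 0.01 over all genes. An unadjusted p under 0.05 was found for 8 and no overlap for 11, all higher.

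Ccr6 was at 150, 141, 56.1 and 45.3 CPM in memory-type cells, a log2 fold change of 1.54 (SE 0.181, edgeR adjusted p = 0.282). Il1r1 was at 243, 214, 97.6 and 92.7 CPM (1.27, SE 0.151, adjusted p = 0.282), and Il23r at 180, 267, 105 and 115 CPM (1.01, adjusted p = 0.471). For each of these genes both BPTES libraries lay above both DMSO libraries. Both Ccr6 and Il1r1 were called in memory-type cells with at most 0.5% other-lineage RNA, where 8293 genes were tested and 3 were called (0.0362%). Of all genes there, 4.26% were higher and 4.34% lower at an unadjusted p under 0.05, and groups did not overlap for 19.8% and 19.7%. Ccr6 was at 190, 175, 52.2 and 55.0 CPM (1.76, adjusted p = 0.0269) and Il1r1 at 281, 265, 103 and 108 CPM (1.37, adjusted p = 0.0464). Leaving out each gene's 2 richest cells of each library, over all memory-type cells, gave a call for both (1.82 and 1.57, edgeR adjusted p = 0.0313). Over all members the 2 richest cells held 8.38%, 14.7%, 22.9% and 22.4% of Ccr6 UMIs and 15.0%, 21.7%, 28.4% and 25.7% of Il1r1 UMIs. Leaving out a fixed number of cells thus took more from the DMSO libraries, so this setting cannot add to the main fit. Without DMSO replicate 1 neither gene was called.

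Further genes chosen by smallest p in memory-type cells were Gria1, Fchsd2 and Ager on the higher side and Kif23, Gzma, Cep55, Cenpf and Cdc20 on the lower side, none called. Fchsd2, a membrane traffic gene, was at 265, 264, 150 and 144 CPM (log2 fold change 0.85, edgeR adjusted p = 0.471). The glutamate receptor gene Gria1 was at 39.7, 28.3, 0 and 1.41 CPM and came from 7, 2, 0 and 2 cells. Ager, which marks alveolar type I epithelium, was at 23.0, 18.0, 1.22 and 2.12 CPM. The 48 interferon response genes, which include antiviral effectors, had 47 tested in memory-type cells with a median of -0.31. There 7 were lower and 1 higher at an unadjusted p under 0.05, and 20 did not overlap on the lower and 3 on the higher side. In naive-type cells 42 were tested with a median of 0.17, 3 higher and 1 lower at an unadjusted p under 0.05, and 8 not overlapping on the higher and 5 on the lower side (17.4% and 17.1% of all genes tested there); the difference between the cell states was not tested.

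Cell division genes lay on the lower side with BPTES and rested on few cells. All 20 genes of the cycling list were tested, none had a positive log2 fold change under TMM, under library totals or in DESeq2, and the median was -1.32. An unadjusted p under 0.05 was found for 14 and no overlap for 19, all lower. None was called by edgeR. Over the 736 members the median was -1.46, with 17 at an unadjusted p under 0.05.

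Cenpf, a kinetochore protein gene, was at 3.48 and 4.22 CPM with BPTES and at 64.1 and 26.5 CPM with DMSO (log2 fold change -3.52, edgeR adjusted p = 0.385). Ube2c, the ubiquitin-conjugating enzyme of the anaphase-promoting complex, was at 9.79, 3.97, 61.5 and 38.3 CPM (-2.82, adjusted p = 0.385). Both were lower in both BPTES libraries, and DESeq2 called both. Birc5 (survivin) was at 12.6, 6.70, 44.9 and 27.0 CPM (-1.86), the replication clamp partner Pclaf at 26.8, 16.6, 62.0 and 43.3 CPM (-1.26), and Kif23, a cytokinesis motor, at 11.3, 9.68, 30.8 and 24.7 CPM (-1.39). Mki67, the gene of Ki-67, was at 60.3, 38.0, 186 and 76.3 CPM (-1.39, adjusted p = 0.542), Top2a at 66.4, 40.7, 188 and 93.9 CPM (-1.38) and the chromatin gene Hmgb2 at 534, 494, 897 and 730 CPM (-0.66). No DMSO library overlapped with a BPTES library for these genes. In memory-type cells at or below 0.5% other-lineage RNA, Pclaf was the only called gene of the list, at 24.7, 15.3, 173 and 128 CPM (-2.85, adjusted p = 0.0269).

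Members with 10 or more of the 20 genes detected numbered 4, 2, 4 and 4. They were 1.60% (95% exact interval 0.438 to 4.05), 0.858% (0.104 to 3.07), 2.78% (0.762 to 6.96) and 1.78% (0.486 to 4.49) of the members, with intervals that overlap. Their median depth was 45352 UMIs, against 14691.5 in the rest. They held 38.8%, 22.4%, 63.1% and 50.5% of all UMIs of the list. With them the list summed to 1322, 1095, 2445 and 1798 CPM, and without them to 853, 864, 992 and 944 CPM, so most of the distance between the groups lay in these 14 cells. The same 20 genes chose these cells, so their levels there only describe 4, 2, 4 and 4 cells, with no test. In these cells Ube2c was at 149, 147, 683 and 674 CPM and the mitotic cyclin Ccnb1 at 8.51, 0, 180 and 127 CPM. The S phase genes Mcm5 (145, 191, 94.9 and 132 CPM) and Rrm2 (183, 221, 171 and 236 CPM) did not separate the groups that way. Cenpf (55.3, 206, 712 and 452 CPM), Birc5 (230, 368, 498 and 481 CPM), Ccna2 (80.8, 132, 261 and 236 CPM) and Cdk1 (72.3, 118, 256 and 198 CPM) were also lower in both BPTES libraries. Some mitotic genes overlapped between the groups in these cells, among them Mki67 (902, 1633, 1742 and 1155 CPM) and Top2a (791, 1236, 1893 and 1093 CPM). Ccnb2 (162, 250, 242 and 363 CPM) and Nusap1 (174, 456, 555 and 339 CPM) overlapped too. Without members above the 95th percentile of UMIs, Ube2c (0.55), Birc5 (1.00) and Pclaf (0.65) had log2 fold changes above 0.

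The promoters of these genes are shown as a description. Many mitotic genes are known to carry a CHR element, which the DREAM and MuvB complexes bind, and CCAAT boxes, which the factor NF-Y binds. The list was chosen as cell division genes, so its motif shares are a trait of the list and do not bear on BPTES. RefSeq sequences of GRCm38.p6 covered 18 of the 20 genes, and the 250 bases before the start were searched on both strands. The CHR letters TTTGAA, or TTCAAA on the other strand, were found in 7 of 18 (38.9%), against 16.0% of 32851 promoters. CCAAT, or ATTGG, was found in 14 of 18 (77.8%) against 33.8%, and both in 7 (38.9%) against 5.55%. The last 100 bases before the start are printed 5′ to 3′ on the gene's strand with these letters in capitals, for Cenpf (chr1:189688087-189688186, minus strand), Ube2c (chr2:164769829-164769928, plus), Pclaf (chr9:65890223-65890322, plus) and Birc5 (chr11:117849137-117849236, plus).
Cenpf: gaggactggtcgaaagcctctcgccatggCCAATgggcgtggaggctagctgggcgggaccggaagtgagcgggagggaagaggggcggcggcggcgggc
Ube2c: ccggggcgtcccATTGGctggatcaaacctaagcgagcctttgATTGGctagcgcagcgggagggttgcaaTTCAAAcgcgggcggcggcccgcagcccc
Pclaf: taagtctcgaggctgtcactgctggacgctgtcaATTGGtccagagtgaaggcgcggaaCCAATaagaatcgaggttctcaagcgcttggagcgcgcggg
Birc5: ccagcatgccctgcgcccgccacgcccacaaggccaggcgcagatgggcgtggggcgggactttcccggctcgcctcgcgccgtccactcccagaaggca
Ube2c held 1 CHR match and 2 CCAAT matches in this stretch, Pclaf 2 CCAAT matches, Cenpf 1 CCAAT match and Birc5 none. A match is a description of the letters, not of a site in use.

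Cytotoxic and type 1 genes leaned to the lower side over all members. Of 16 cytotoxic genes 11 had a negative log2 fold change (median -0.31), 8 did not overlap on the lower and 2 on the higher side, and an unadjusted p under 0.05 was found for 4 lower and 1 higher. Ccl5, a chemokine of effector T cells, was at 374, 545, 693 and 940 CPM (log2 fold change -0.83, edgeR adjusted p = 0.472). Gzmk, a granzyme of aged effector memory T cells, was at 27.0, 43.9, 68.8 and 87.1 CPM (-1.15, adjusted p = 0.413). Both were lower in both BPTES libraries. Nkg7 was at 120, 134, 170 and 274 CPM (-0.82, adjusted p = 0.495).

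Gzma was at 1.74, 8.44, 14.5 and 41.4 CPM (-2.52, adjusted p = 0.527), with 62.5% to 96.2% of its UMIs in 2 cells of each library, and its log2 fold change was 0.33 without the cycling members. Cd27, a costimulatory receptor lost on late effector cells, was at 76.6, 79.4, 113 and 120 CPM (-0.58, edgeR adjusted p = 0.385). Xcl1, the ligand of the dendritic cell receptor Xcr1, was at 9.58, 13.9, 29.9 and 31.5 CPM (-1.39, adjusted p = 0.385), and Eps8l1 at 9.14, 7.94, 21.4 and 26.0 CPM (-1.47). Of 12 type 1 genes, 4 did not overlap, all lower, with a median of -0.16, and 2 had an unadjusted p under 0.05. In memory-type cells at or below 0.5% other-lineage RNA the lean was not seen for type 1 genes (10 tested, 6 positive, median 0.04, 3 not overlapping higher and 1 lower), and of 15 cytotoxic genes (5 positive, median -0.17) 2 did not overlap on the higher and 1 on the lower side. Type 2 genes (11 tested, median -0.08) and follicular helper genes (11 tested, median -0.10) had 1 and 2 genes at an unadjusted p under 0.05.

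In naive-type cells the called genes were MHC class II genes, lower with BPTES. These cells numbered 84, 106, 59 and 70, and of 9052 genes tested 4 were called (0.0442%), all lower, beside 2.92% of genes higher and 2.21% lower at an unadjusted p under 0.05. They were H2-Eb1, H2-Ab1 and H2-Aa, which encode class II chains, and Cd74, their invariant chain. T cells of the mouse are not known to express class II, while B and dendritic cells do. H2-Eb1 was at 50.3 and 51.8 CPM with BPTES and 455 and 491 CPM with DMSO (log2 fold change -3.21, SE 0.134, edgeR adjusted p = 0.00376). H2-Ab1 was at 60.8, 64.2, 540 and 520 CPM (-3.08, adjusted p = 0.00376), H2-Aa at 78.0, 82.2, 558 and 648 CPM (-2.91, adjusted p = 0.00618) and Cd74 at 220, 163, 1221 and 1250 CPM (-2.69, adjusted p = 0.0239). The DMSO libraries were several-fold above both BPTES libraries for all 4 genes.

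Much of the class II RNA lay in few barcodes. In DMSO replicate 1, 1 cell held 94.0% of the class II UMIs (2223 of 2365), and in DMSO replicate 2, 2 cells held 37.5% and 30.8% (1352 and 1111 of 3609). In BPTES replicate 1 the richest cells held 33.0% and 32.8% of 618 class II UMIs, and in BPTES replicate 2 33.0% and 32.4% of 642. A UMI of H2-Ab1 was found in 17, 24, 12 and 24 naive-type cells. Each of the 3 DMSO cells had 3 of 8 dendritic cell genes detected. The dendritic list summed to 17.6, 5.00, 87.2 and 92.1 CPM in naive-type cells, with Xcr1 and Siglech at 0 throughout, and the B cell list, which shares class II genes, to 483, 458, 2352 and 2665 CPM. Without the 2 richest cells of each library no class II gene was called (edgeR adjusted p = 0.930). Without DMSO replicate 1 the 4 genes had adjusted p-values of 0.0522 to 0.219, and without DMSO replicate 2 Cd74 had 0.149. The same genes stood the other way in memory-type cells, where none was called: H2-Eb1 was at 419, 189, 24.4 and 84.2 CPM (log2 fold change 2.40, edgeR adjusted p = 0.471), and the B cell list summed to 2309, 1185, 341 and 727 CPM. Over all members H2-Eb1 was at 306, 264, 184 and 275 CPM, and the groups overlapped. Mgl2, a lectin gene of dendritic cells and macrophages, was at 1.32, 0, 63.3 and 75.7 CPM and was not called (adjusted p = 0.125).

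On the higher side of naive-type cells no gene was called, and the 5 smallest p-values belonged to Rai14, Atf3, Bcam, Pard3 and Csgalnact1 (edgeR adjusted p = 0.663). Atf3, a stress-induced transcription factor, was at 110, 145, 45.8 and 33.0 CPM (log2 fold change 1.71), with 43.9% to 59.9% of its UMIs in 2 cells of each library. The epithelial list summed to 13278, 1508, 120 and 245 CPM in naive-type cells. The endothelial, fibroblast and monocyte and macrophage lists overlapped between the groups. The part of other cells' RNA in these genes was not tested.

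Genes of glutamine metabolism, which the inhibitor acts on, showed no call. Of 34 genes of glutamine and amino acid metabolism 31 were tested, none had an unadjusted p under 0.05, 5 did not overlap on the higher and 9 on the lower side, and the median was -0.06. Slc1a5, a glutamine carrier, was at 70.3, 71.2, 73.9 and 76.6 CPM, and Slc38a2, a carrier induced by amino acid shortage, at 241, 230, 203 and 217 CPM. Of 30 ATF4 target genes 24 were tested (median -0.05, 2 higher and 0 lower at an unadjusted p under 0.05; over the 736 members 21 were tested, 0 higher and 4 lower), and of the glycolysis, mTORC1 and Myc list 30 were tested (median -0.05, none at an unadjusted p under 0.05).

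**Figure D5:**
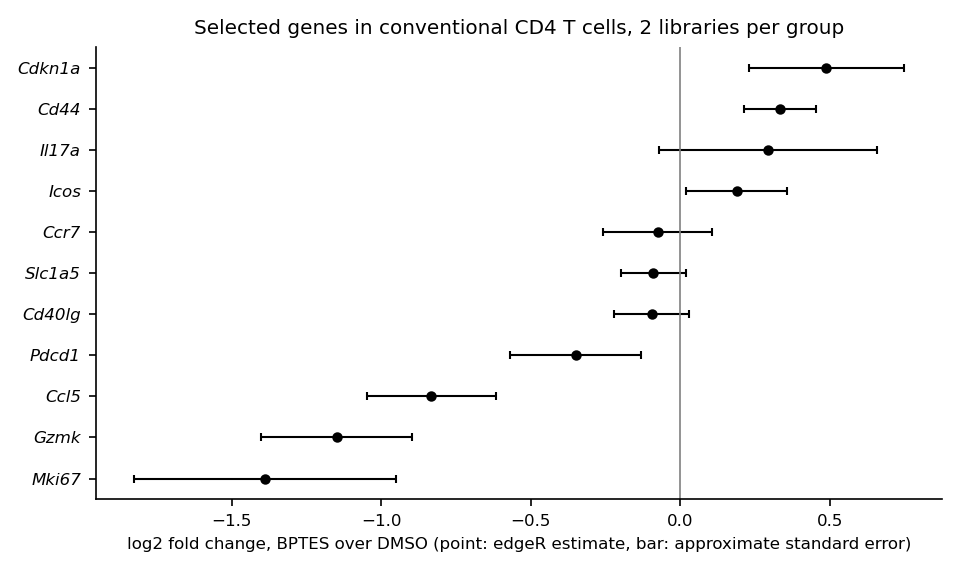
log2 fold change of BPTES over DMSO for genes given whether called or not (horizontal axis), with points for the edgeR estimate and bars for its approximate standard error, 2 libraries per group. The estimates run from -1.39 (Mki67) to 0.49 (Cdkn1a).

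Of the 28 genes chosen to be named whether called or not, 27 were tested, with log2 fold changes from -1.39 for Mki67 to 0.49 for Cdkn1a and a smallest adjusted p of 0.413 in edgeR; 4 had an unadjusted p under 0.05. Cd44, an activation marker, was at 422, 400, 290 and 360 CPM (0.33, adjusted p = 0.582). Cdkn1a, the p53 target and cell cycle inhibitor p21, was at 102, 146, 68.0 and 107 CPM, and the groups overlapped. Tox, a factor of exhausted T cells, was at 354, 374, 532 and 424 CPM (-0.39, adjusted p = 0.545). The age and exhaustion list had 18 tested genes (median -0.20, 2 higher and 3 lower at an unadjusted p under 0.05), and the senescence and p53 list 17 (median 0.07, 0 higher and 2 lower).

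Heat shock genes lay on the higher side. All 13 had a positive log2 fold change under each scaling, with a median of 0.37, 9 did not overlap and 3 had an unadjusted p under 0.05, all higher. Hsph1, an HSP70 exchange factor, was at 58.3, 141, 23.9 and 38.0 CPM (log2 fold change 1.65, edgeR adjusted p = 0.495), and Hspa8, the constitutive HSP70, at 834, 1117, 751 and 779 CPM. These genes also respond to tissue digestion. The digestion time was the same for all libraries, and the part of handling in this difference was not tested. In CD8 T cells all 13 were positive too (median 0.30). There 9 did not overlap, beside 2642 of 13176 genes on the higher side, and 8 had an unadjusted p under 0.05 in edgeR, all higher. Naive and central memory genes had a median of 0.02 over all members (1 of 15 higher at an unadjusted p under 0.05) and of 0.18 over the 736 members (7 of 15). Interferon response genes had 5 of 48 lower at an unadjusted p under 0.05, and mitochondrial respiration genes 1 of 32 lower, with 15 not overlapping on the lower side.

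The BPTES effect was also set against that in CD8 T cells of the same libraries. Of 13070 genes tested for a difference between both effects edgeR called none (0.0%), 819 having an unadjusted p under 0.05; DESeq2 called 7, of which 6 were larger in conventional CD4 T cells. Klrk1 had the difference with one of the smallest p-values, 2.00 on the log2 scale (SE 0.378, edgeR adjusted p = 0.655). It was at 269, 208, 340 and 317 CPM in CD8 T cells, where the DMSO libraries were higher. The difference was 0.60 (SE 0.297) for Il1r1 and -1.24 (SE 0.350) for Gzmk, neither called.

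T cell receptor beta segments gave the last view of the class. A Trbv UMI was found in 436 of 852 members (51.2%), over 21 segments, and each of these cells was assigned the 1 segment with most UMIs (on ties, the first in the matrix), led by Trbv2 in 63 cells (14.4%) and Trbv12-2 in 53 (12.2%). Trbv19 was assigned to 26 of 140 such cells of BPTES replicate 1 (18.6%), against 5.79%, 8.33% and 9.71% in the other libraries; counted without assignment, a Trbv19 UMI was found in 27, 7, 8 and 13 members. A Trav UMI was found in 7 of those 26 cells, and no Trav segment was assigned to more than 1 of them. Of the 26 cells 11 had an Il17a UMI, against 11 of the other 114 cells with a Trbv UMI in that library. In BPTES replicate 2 and DMSO replicates 1 and 2, 1 of 7, 2 of 6 and 0 of 10 cells assigned to Trbv19 had an Il17a UMI, against 9 of 114, 3 of 66 and 2 of 93 others. Of the 25 cells assigned to Trbv2 in BPTES replicate 1, 7 had one. No test was made of these counts.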

How the data were processed

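The authors deposited 1 filtered matrix of UMI counts per library, made with Cell Ranger 8.0.1 on mm10 per the submitters' processing notes, with 31054 features. Members were chosen by the rule above; no doublet caller was run, and barcodes with RNA of other lineages were limited only by the rule and by the added limit of 0.5%. The members and gene lists were chosen with earlier results of these data known. UMI counts were summed over members per library, with none averaged over cells, and tested in R 4.3.3 with edgeR 4.0.16 (filterByExpr, TMM, quasi-likelihood test, two-sided, Benjamini-Hochberg over all genes tested, called at an adjusted p under 0.05, approximate standard errors). CPM use TMM library sizes, except where cell classes are compared. DESeq2 1.42.0 was an alternative. Python 3.11.15, numpy 2.4.6, scipy 1.17.1, pandas 2.3.3 and matplotlib 3.10.9 did the rest.

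Genes named were up to 10 called genes per direction with groups that did not overlap and a mean of at least 10 CPM, filled up to 5 by smallest p; called list members; a list of 28 genes; and, with values already seen, further genes of the lists described. Some single genes this rule selects are not reported here. Genes against other classes had a mean of at least 50 CPM. Reads of overlapping or near-identical genes cannot be separated here. On simulated counts of 11762 genes the class test recovered 66% of 2-fold and 99% of 4-fold changes, with 12 false calls. The naive-type test (9072 genes) recovered 20% and 73% with 2 false calls, and the memory-type test (9511 genes) 44% and 85% with 7. Simulated counts followed the dispersion trend, without each gene's own spread between libraries, and only genes of at least 10 CPM were changed. Recovery of real changes may therefore be lower. Same-numbered libraries of both groups correlated at 0.0951 in their deviations from the group means and were not taken as pairs. With 2 libraries per group the deviations mirror each other, so both pairs give this same 1 value.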

Additional observations from a re-analysis of the deposited data

How the results depend on the processing

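With 2 libraries per group, 1 library often decided a call, and sums over 144 to 250 members limit low genes. No gene was called over all members. No filter on low counts gave 665 calls, DESeq2 39, a replicate block 1 (Chil3), and leaving out 1 library 0 to 34. With the other-lineage limit there were 94, 73, 9 and 43 without BPTES replicates 1 and 2 and DMSO replicates 1 and 2. In naive-type cells the 4 calls became 11 with a replicate block, 12 with the limit, 0 without the 2 richest cells and 0 to 47 without 1 library. In memory-type cells the 0 calls became 5 with a block, 3 with the limit, 2 without the 2 richest cells and 0 to 47. DESeq2 gave 7 calls for the difference to CD8 T cells. Called genes of the lists numbered 8 in DESeq2, 57 with no filter, and 30, 27, 7 and 14 with the limit and without 1 library, in the same order. The log2 ratio of the members' share of Ptprc barcodes was 0.60 with 3 CD3 and Trac genes, 0.59 with the replicate block (adjusted p = 0.0663) and 0.47 to 0.72 without 1 library. Over 49 gene results and 743 values under alternatives, 623 kept side and direction, 101 were called only under an alternative, 9 lost a call and 10 turned. Turned log2 fold changes were, without members above the 95th UMI percentile, Lpl -0.11, Ube2c 0.55, Birc5 1.00, Pclaf 0.65 and Gzma 0.42; without cycling members Gzma 0.33; with the limit and without the 2 richest members Cxcl2 -0.72; without 1 library Il17a between -0.17 (without BPTES replicate 1) and 0.79, with -0.11 without DMSO replicate 2; with the limit and without BPTES replicate 1 Cd44 -0.085. The cause was not tested. Settings with the other-lineage limit, without cycling members or without the 2 richest cells were chosen after the data were seen. Fewer than 3 other-lineage UMIs left 2 members and could not be fitted.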
